A study of Mus musculus with 6 samples.

Results

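Genes of duodenal bicarbonate handling and guanylin signalling were followed in RNA-seq libraries of mouse duodenum, namely Cftr, Slc26a3, Slc26a6, Slc4a4, Slc9a3, Car2, Car4, Guca2a, Guca2b and Gucy2c. They were taken by symbol as 10 of the 23699 rows of the deposited gene tables. No measured value entered this rule, but the list was chosen with earlier results of these data known. Tissue came from the 2 cm of duodenum next to the stomach, at 6 weeks of age, on a mixed background. There were 6 libraries, 3 of controls and 3 of mutants. Control 1 had the genotype Nkx2.2flox/+; Rosa26Tomato/+, control 2 had Rosa26Tomato/+, and control 3 was wild type (WT). Mutants 1 and 3 had the genotype Nkx2.2flox/SD; Villin-Cre/+; Rosa26Tomato/+, and mutant 2 had the same alleles without the Tomato reporter. Nkx2.2 is a homeodomain transcription factor of gut endocrine cells. Villin-Cre acts in the intestinal epithelium, so the floxed copy is removed there and the SD copy is the one left, while cells outside the epithelium carry both. No control carried Cre or the SD allele, so Cre, loss of the floxed copy and the SD allele cannot be told apart for any difference below. In whole tissue, fewer cells of a type and less RNA per cell cannot be told apart either.

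The duodenum receives gastric acid and neutralises it with bicarbonate secreted by its epithelium. CFTR, an apical anion channel, releases chloride and bicarbonate, and the exchangers encoded by Slc26a3 and Slc26a6 trade luminal chloride for bicarbonate. Slc4a4 encodes a basolateral sodium bicarbonate cotransporter, the carbonic anhydrases of Car2 and Car4 interconvert carbon dioxide and bicarbonate inside the cell and at its surface, and Slc9a3 encodes the apical sodium/hydrogen exchanger NHE3, which absorbs sodium. Guanylin (Guca2a) and uroguanylin (Guca2b) are secreted into the lumen and bind guanylate cyclase C (Gucy2c) on the same epithelium. The cyclic GMP made there opens CFTR through a membrane-bound protein kinase and inhibits NHE3.

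The ligands act through a short cysteine-bridged peptide at the end of each precursor, and the bases that encode this end are shown because the mutants and controls were compared for the balance of these ligands. Each line gives the last 15 codons and the stop codon of the GENCODE M1 coding sequence, 5′ to 3′, with cysteine codons in capitals.
Guca2a: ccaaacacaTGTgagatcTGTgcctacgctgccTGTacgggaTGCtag
Guca2b: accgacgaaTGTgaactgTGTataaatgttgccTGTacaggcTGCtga
The ends match at 30 of 48 bases (62.5%). Both hold 4 cysteine codons, and all 4 stand at the same places, codons 4, 7, 12 and 15 of the stretch. The genes are neighbours on chromosome 4 of mm9 (NCBIM37). Guca2a spans 119310309 to 119312076 on the forward strand and Guca2b spans 119329212 to 119331559 on the reverse strand, with 17135 bases between them and their starts facing outward.

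The upstream bases of the ligand genes and of Cftr are shown because these neighbours did not vary together across libraries, and because Cftr was the member whose groups did not overlap. Each line gives the 250 bases before the RefSeq start (sequence from RefSeq on GRCm38.p6, matched here to mm9), 5′ to 3′ in the direction of the gene. Capitals mark 3 short motifs searched on both strands: AAGTG, the core bound by NK2 homeodomain factors, GTTAAT, part of the site of HNF1, and TTTAT, a core bound by caudal-type homeodomain factors.
Guca2a, chr4:119310087-119310336, forward: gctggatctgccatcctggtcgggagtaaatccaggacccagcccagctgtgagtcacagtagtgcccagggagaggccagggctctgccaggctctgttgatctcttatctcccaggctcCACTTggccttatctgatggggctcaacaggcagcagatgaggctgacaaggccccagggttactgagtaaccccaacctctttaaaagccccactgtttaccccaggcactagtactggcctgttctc
Guca2b, chr4:119331551-119331800, reverse: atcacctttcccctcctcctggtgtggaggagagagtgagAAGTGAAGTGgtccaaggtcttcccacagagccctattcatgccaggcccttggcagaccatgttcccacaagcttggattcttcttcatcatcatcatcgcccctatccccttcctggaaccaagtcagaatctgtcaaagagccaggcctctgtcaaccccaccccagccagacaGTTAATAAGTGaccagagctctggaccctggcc
Cftr, chr6:18120437-18120686, forward: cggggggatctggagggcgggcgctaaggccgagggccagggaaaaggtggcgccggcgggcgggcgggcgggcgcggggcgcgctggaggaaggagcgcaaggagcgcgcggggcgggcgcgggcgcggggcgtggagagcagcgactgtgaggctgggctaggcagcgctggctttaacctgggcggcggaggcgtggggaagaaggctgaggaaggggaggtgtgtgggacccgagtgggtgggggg
The AAGTG core occurred 3 times upstream of Guca2b, 1 time upstream of Guca2a and 0 times upstream of Cftr. It was present at least 1 time in 40.7% of all 32851 RefSeq promoter windows of this length. Of the members' windows not shown, those of Slc26a3 and Slc26a6 and 1 of 2 of Slc4a4 held it 1 time. The other Slc4a4 window and those of Slc9a3 and Car4 held it 0 times. GTTAAT occurred 1 time upstream of Guca2b, next to an AAGTG, and in 6.4% of all windows, and TTTAT in none of the 3 shown and in 37.3% of all. Of the members' windows not shown, Slc26a3 held GTTAAT 2 times and TTTAT 1 time, Slc26a6 held TTTAT 1 time, and the rest held neither. A match is a description of the letters and not a binding site.

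Depth, read from the isoform coverage, ranged over 19.61 to 21.41 M reads for the controls and over 19.1 to 22.92 M for the mutants. Levels are FPKM, fragments per kilobase of transcript and per M mapped reads, and group values are mean ± SD (n = 3). Nkx2-2 itself was at 1.07, 0.647 and 0.716 FPKM across controls 1 to 3 and at 0.564, 0.772 and 0.909 FPKM across mutants 1 to 3, and such totals do not show which allele is expressed. Xist and Eif2s3y marked control 1 and mutant 1 as male and the other 4 libraries as female, so each group held 1 male. With a term for sex added to the fit, limma called 70 genes (0.478%) for sex after adjustment, while 14.4% had p under 0.05 before it and 27.3% separated males from females. Over all genes, limma called 0 of 14642 at an adjusted p under 0.05 (0.0%), where 416 (2.84%) had an unadjusted p under 0.05 and limma-voom also called 0. Villus enterocyte markers, which define the labelled tissue, summed to 21841 to 34603 FPKM across the controls and to 26766 to 35884 FPKM across the mutants.

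The 9 genes with a successful estimate in every library were well expressed throughout, and the order was led by uroguanylin. Slc4a4, whose estimate failed in 3 of the 6 libraries, is placed by its listed values. Guca2b stood highest, at a mean of 983 FPKM over the 6 libraries, and its lowest library (541 FPKM) lay above the highest library of any other member. Slc26a6 followed at 246.6 FPKM and exceeded Car2 within each of the 6 libraries. Car2, Slc26a3 and Guca2a, at means of 157.5, 132.2 and 116.3 FPKM, overlapped in range and changed places between libraries. Gucy2c stood at 85.8 FPKM, below Guca2a in all 6 libraries. Slc9a3 (38.6 FPKM), Slc4a4 (37.4 FPKM), Car4 (32.4 FPKM) and Cftr (29.4 FPKM) formed the lower end, where neighbours in the order overlapped in range.

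**Figure D1:**
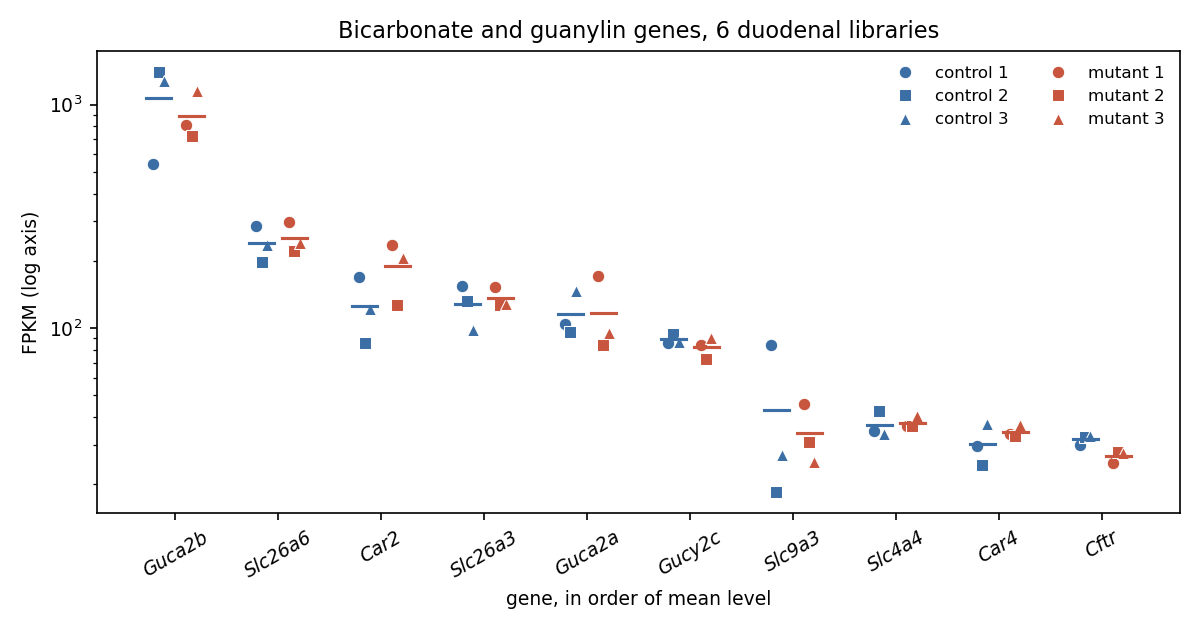
Level of each gene in FPKM (log axis), with 1 point per library, controls in blue and mutants in red, and horizontal lines at the group means. For Slc4a4 the listed values are shown, of which 3 come from failed estimates. Guca2b lies above all other genes, Slc9a3 has 1 high control at 84.0 FPKM, and Cftr is the gene in which all 3 mutants lie under all 3 controls.

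The members differed in how steady they were among the libraries of each group. The SD of log2 values within groups was 0.082 for Cftr and 0.122 for Gucy2c, where the median of 6347 genes at 10 FPKM or more was 0.139. These values stood at the 17.3rd and 41.0th percentiles of those genes. At the other end, Slc9a3 had an SD of 0.856 (98.7th percentile), Guca2b 0.588 (97.2), Car2 0.479 (95.9) and Guca2a 0.447 (95.3). Car4 (79.0th percentile), Slc26a6 (82.4) and Slc26a3 (84.3) lay between.

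The gene of the apical chloride and bicarbonate channel had a slightly lower mean in the mutants, a difference that was not called. Cftr had 30.2, 32.6 and 32.9 FPKM across controls 1 to 3 and 24.9, 28.0 and 27.7 FPKM across mutants 1 to 3. Every mutant lay below every control. The means were 31.9 ± 1.51 and 26.9 ± 1.71 FPKM, a log2 change of -0.25 (SE 0.09) or 0.842-fold on the log2(FPKM + 0.1) scale, with a 95% interval of 0.729 to 0.973. The limma unadjusted p was 0.0258 and the adjusted p over all genes was 0.99996, so it did not pass. By exact permutation, two-sided, p was 0.1, which is the smallest that 3 against 3 allows. Of all tested genes, 2.84% had a limma unadjusted p under 0.05 in either direction, and for 7.57% the groups did not overlap. Tests were two-sided, so 1 of 9 members is read against these shares. Counting only genes lower in the mutants, the shares were 0.861% and 3.43%. The authors' deposited table gives Cftr a fold change of 0.839 with p = 0.131 and adjusted p = 1. That table calls 5 of its 18621 genes (0.0269%), and 0 of the 10 members. Each library had 2899 to 4266 estimated Cftr reads.

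Cftr is known to be strongest in crypts, so crypt markers are given beside it. Their sum was 436, 281 and 336 FPKM across controls 1 to 3 and 326, 288 and 284 FPKM across mutants 1 to 3. The groups overlapped in this sum, although for 6 of 6 markers the mutant mean was the lower one (median log2 change -0.08). None of the 6 passed, and none separated the groups. Paneth cells, which also sit in crypts, went the other way, with a log2 change above 0 for 6 of 6 tested markers (median 0.24), none called and none separating the groups. Goblet cell markers had a log2 change above 0 for 7 of 7 (median 0.25), none called, with Tff3 (0.31, SE 0.12) and Spink4 (0.25, SE 0.12) higher in every mutant. Of 8 enteroendocrine markers 6 were below 0, and Chga, a granule protein gene, had 26.4, 22.0 and 36.2 FPKM across the controls and 14.0, 13.0 and 18.6 FPKM across the mutants (log2 change -0.88, SE 0.21, limma unadjusted p = 0.00376, adjusted p = 0.99996). Groups did not overlap for 2 of the 7 goblet cell markers and 1 of the 8 enteroendocrine markers. The share over all tested genes was 7.57% in either direction. Tff3, Spink4 and Chga are named after their values were seen, and the part of these cell types in the Cftr values was not tested. Pancreatic acinar markers summed to 46.7, 6.07 and 31.3 FPKM across the controls and 11.9, 48.3 and 10.5 FPKM across the mutants, with the groups overlapping. Cela1 made up most of the sum in control 2 (5.52 FPKM), mutant 1 (11.6 FPKM) and mutant 3 (9.79 FPKM), and Ptf1a was at or near 0. The list holds no duct marker, so it does not measure duct RNA, which also holds Cftr.

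The anion exchangers showed no group difference that exceeded their spread. Slc26a3, also known as DRA, had 154.9, 132.2 and 98.5 FPKM across the controls and 153.5, 126.4 and 127.7 FPKM across the mutants. The mutant values lay within the control range, and the fitted fold was 1.07 with a 95% interval of 0.809 to 1.42. Slc26a6, also known as PAT1, had 285.6, 197.5 and 234.7 FPKM across the controls and 298.5, 222.4 and 240.7 FPKM across the mutants. Its fold was 1.06 with an interval of 0.814 to 1.39, so differences of 1.5-fold in either direction lie outside the intervals of both genes. In both groups the male library held the highest value of each exchanger.

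The sodium bicarbonate cotransporter could not be tested, because the authors' estimate for Slc4a4 failed in 3 of the 6 libraries. Its listed levels were 34.7, 42.5 and 33.6 FPKM across the controls and 36.4, 36.6 and 40.4 FPKM across the mutants, with the status of failure in control 2, mutant 1 and mutant 3. The listed values overlapped between the groups. The authors' deposited table, made from counts, gives a mean of 5669 normalized counts in controls and 5758 in mutants, a fold change of 1.02 with p = 0.795.

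Slc4a4 was split over 3 RefSeq isoforms. NM_018760, of 7492 bases, held 79.3% and 87.6% of the gene's FPKM in libraries control 1 and control 3 and 69.3% in mutant 2, the libraries with a successful estimate. NM_001197147, which is 27 bases shorter, held 20.7%, 12.4% and 30.7% there. The third, NM_001136260, was listed at no more than 0.000899 FPKM in any library. In GENCODE M1 the sixth exon has alternative ends 27 bases apart. The isoforms were linked to this stretch by its length alone, and it is shown because the split may rest on so short a stretch:
Slc4a4, chr5:89475391-89475417, forward: gtaggatgtttagcaaccctgataatg
In control 2, where the estimate failed, the shorter isoform was listed at 0.0387 FPKM.

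**Figure D2:**
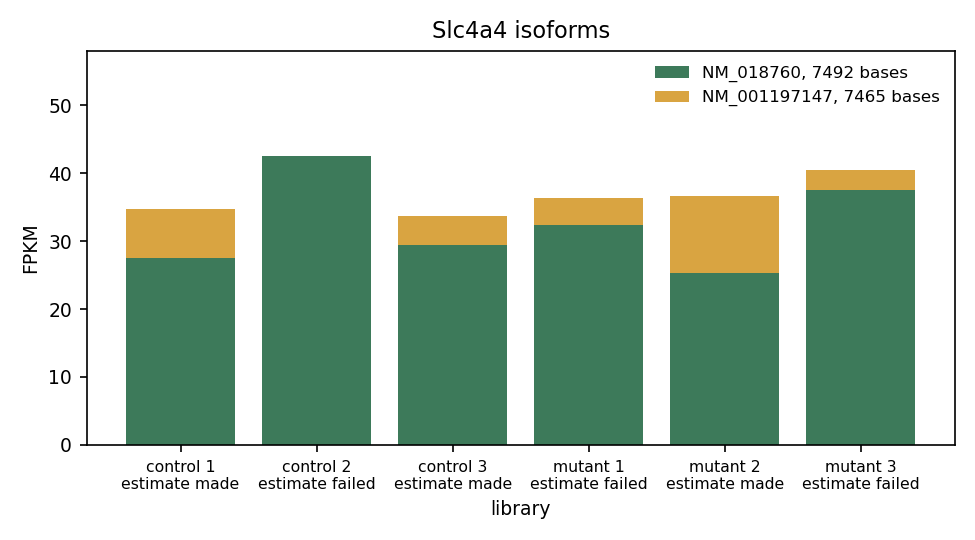
FPKM of the main Slc4a4 isoforms stacked by library, with the status of the authors' estimate under each bar. The gene total lies between 33.6 and 42.5 FPKM throughout, while the shorter isoform ranges from 0.0387 to 11.2 FPKM.

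Neither carbonic anhydrase passed the test, and for both the mean was the higher one in the mutants. Car2, the cytosolic enzyme, had 169.0, 85.5 and 122.4 FPKM across the controls and 234.3, 127.2 and 206.8 FPKM across the mutants, so mutant 2 lay inside the control range. The means were 125.6 ± 41.9 and 189.4 ± 55.6 FPKM, a log2 change of 0.60 (SE 0.30) or 1.52-fold, with an interval of 0.930 to 2.47 (limma unadjusted p = 0.0840, adjusted p = 0.99996). In the authors' deposited table the fold change of Car2 is 1.51 with p = 0.0990. Leaving out 1 library moved the log2 change of Car2 between 0.35 (without control 2) and 0.86 (without mutant 2, limma unadjusted p = 0.0184), and it was 0.42 without mutant 1 and 0.84 without control 1. With a sex term the change was the same, with an unadjusted p of 0.0329 by limma, and males stood above females by 0.63 (SE 0.23), at 201.6 and 135.5 FPKM. No adjusted p of Car2 passed in these fits. Red blood cells also hold this enzyme: erythroid markers summed to 136, 36.8 and 56.6 FPKM across the controls and 70.2, 59.4 and 48.6 FPKM across the mutants, and their part in the Car2 values was not tested.

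Car4, the enzyme anchored on the cell surface, had 29.8, 24.4 and 37.2 FPKM across the controls and 33.5, 32.8 and 36.9 FPKM across the mutants. All mutant values lay inside the control range, and the fold was 1.14 with an interval of 0.889 to 1.47. Of the other 14 carbonic anhydrase genes, 11 passed the filter on low values and 0 passed the test in either direction, with a median log2 change of -0.17 against 0.0042 over all tested genes. Car9, a membrane enzyme, stood at 54.4 ± 20.6 FPKM across the controls and 44.5 ± 18.1 FPKM across the mutants. Car13, a cytosolic enzyme, stood at 40.7 ± 9.10 and 36.0 ± 5.46 FPKM, and Car12 at 4.95 ± 0.533 and 5.04 ± 1.93 FPKM. Car1, the form of colon and red cells, was listed at 0 in 5 libraries and at 0.0468 FPKM in mutant 2.

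The sodium/hydrogen exchanger was the least steady member, and 1 control decided its mean. Slc9a3 had 84.0, 18.5 and 27.2 FPKM across the controls and 45.8, 31.0 and 25.3 FPKM across the mutants. Control 1 and mutant 1, the male libraries, were the highest of their groups. The log2 change was -0.08 (SE 0.53), and the 95% interval ran from 0.402-fold to 2.23-fold, which takes in changes of 2-fold either way. Without control 1 the log2 change turned to 0.55. The authors' deposited table gives a fold change of 0.804 with p = 0.608.

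The ligands did not differ between groups beyond their spread. Guca2a had 104.5, 96.2 and 147.0 FPKM across the controls and 170.4, 83.9 and 95.6 FPKM across the mutants, where mutant 1 was the highest and mutant 2 the lowest of all. Its fold was 0.974 with an interval of 0.616 to 1.54. Guca2b had 541, 1402 and 1279 FPKM across the controls and 807, 726 and 1144 FPKM across the mutants, with control 1 the lowest of all. Its fold was 0.884 with an interval of 0.486 to 1.61. Without control 1 the log2 change of Guca2b was -0.61 (limma unadjusted p = 0.0243, adjusted p = 0.984), and without control 2 or control 3 it was 0.0726 and 0.0066.

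Uroguanylin exceeded guanylin in every library, by an amount that varied. The Guca2b to Guca2a ratio was 5.18, 14.6 and 8.70 in controls 1 to 3 and 4.73, 8.65 and 11.97 in mutants 1 to 3, lowest in the male library of each group. On the log2 scale the means were 3.12 ± 0.746 and 2.98 ± 0.679, a difference of -0.14 (exact two-sided permutation test, p = 0.7, where 3 against 3 cannot go below 0.1). Although the genes are neighbours and encode ligands of 1 receptor, their log2 levels had a Pearson r of 0.08 over the 6 libraries. With 6 points of 2 groups this r is a description only.

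**Figure D3:**
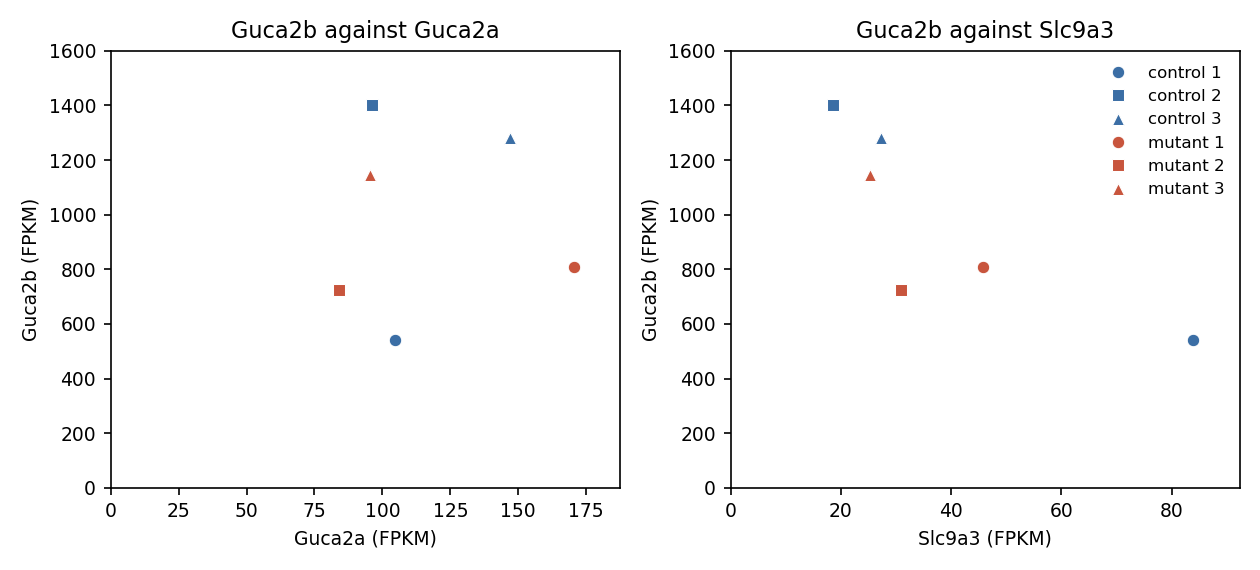
Guca2b level against Guca2a (left) and against Slc9a3 (right), in FPKM, with 1 point per library. No common trend is seen on the left, while on the right control 1, highest in Slc9a3 at 84.0 FPKM, is lowest in Guca2b at 541 FPKM.

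The receptor was steady. Gucy2c had 86.3, 94.2 and 87.1 FPKM across the controls and 84.4, 72.8 and 90.1 FPKM across the mutants, with only mutant 2 well below the rest. Its fold was 0.921 with an interval of 0.781 to 1.09, so a change of 1.5-fold lies outside the interval. Of its 2 RefSeq isoforms, NM_001127318 (3936 bases) carried all but a trace of the signal, and NM_145067, which is 72 bases shorter, was listed at no more than 4.41e-05 FPKM. GENCODE M1 holds a cassette exon of 72 bases in this gene, linked to the isoform difference by its length alone and shown because the longer isoform carried the signal:
Gucy2c, chr6:136676852-136676923, reverse: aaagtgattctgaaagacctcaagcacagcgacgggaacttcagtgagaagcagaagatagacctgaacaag
The longer isoform had a log2 change of -0.12 (SE 0.10). In the fit over all 17922 isoforms, 5 (0.0279%) passed, and 0 of the 9 member isoforms tested did. Before adjustment 633 isoforms (3.53%) had a limma p under 0.05, among them that of Cftr as the only member isoform.

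**Figure D4:**
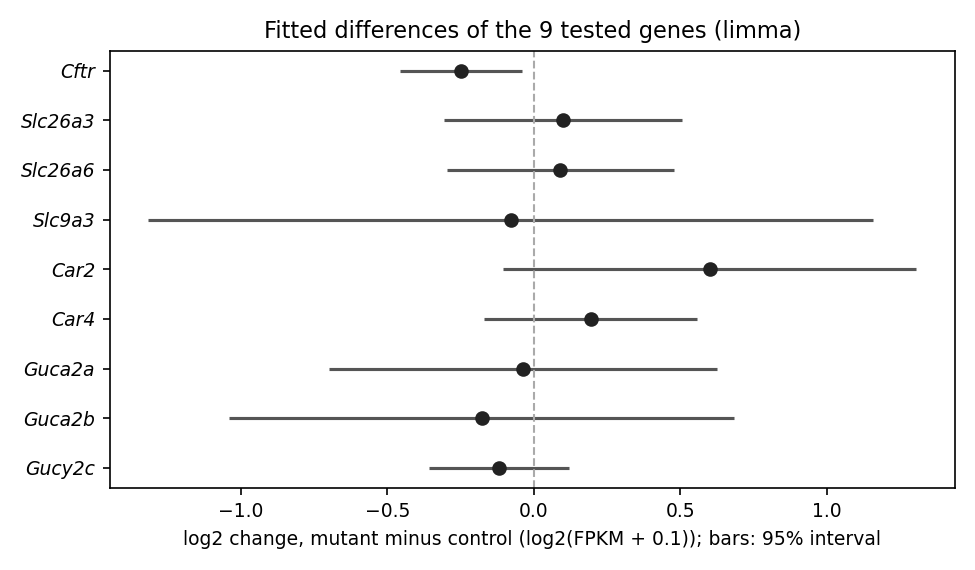
Fitted log2 change of the 9 tested genes, mutant minus control, as points with 95% intervals from limma. The interval of Cftr (-0.46 to -0.04) is the only one that leaves out 0, before any adjustment over genes, and that of Slc9a3 is the widest.

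Some members varied together across the 6 libraries. Of 36 pairs of tested members, 2 had a Pearson r of log2 levels over 0.8, namely Slc26a6 with Slc9a3 and with Car2 (both 0.85). A further 2 were under -0.8: Slc9a3 with Guca2b (-0.90) and Cftr with Car2 (-0.82). After removal of the group means these values were 0.89, 0.92, -0.93 and -0.74, so that Cftr with Car2 no longer lay under -0.8, while Cftr with Slc26a6 went from -0.61 to -0.89. They describe 6 libraries only, and no test was made of them.

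The markers of Brunner glands, the mucous glands of the first part of the duodenum, differed widely between libraries and are given beside these patterns. Their sum (Tff2, Muc6 and Egf) was 4547, 471 and 121 FPKM across controls 1 to 3 and 4599, 1333 and 354 FPKM across mutants 1 to 3. Most of it was Tff2, and Egf did not exceed 0.236 FPKM. The male libraries, control 1 and mutant 1, had the highest sums, the highest Slc9a3 and Slc26a6 of their groups and the lowest Guca2b to Guca2a ratios. For differences between male and female libraries, gland content and sex cannot be told apart. The sums also varied among the female libraries, from 121 FPKM in control 3 to 1333 FPKM in mutant 2. The part of gland content and of sex in the members' levels was not tested. Gastric markers summed to at most 10.3 FPKM, and Muc5ac and Atp4b were at or near 0. Of the 8 gastric markers, 3 passed the filter on low values and none was called. For 2 of these 3 the groups did not overlap, at low levels, where 7.57% of all tested genes did not overlap in either direction. They are named after their values were seen. Tff1 had 1.396, 0.381 and 0.351 FPKM across the controls and 1.96, 2.38 and 2.20 FPKM across the mutants (log2 change 1.73, SE 0.45). Gif had 0.742, 0.0386 and 0.427 FPKM across the controls and was listed at 0 in all 3 mutants. Its mean of 0.201 FPKM passed the filter on low values through the controls alone, so its lack of overlap is not read as a result. The part of Tff1 and Gif in the members' levels was not tested.

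**Figure D5:**
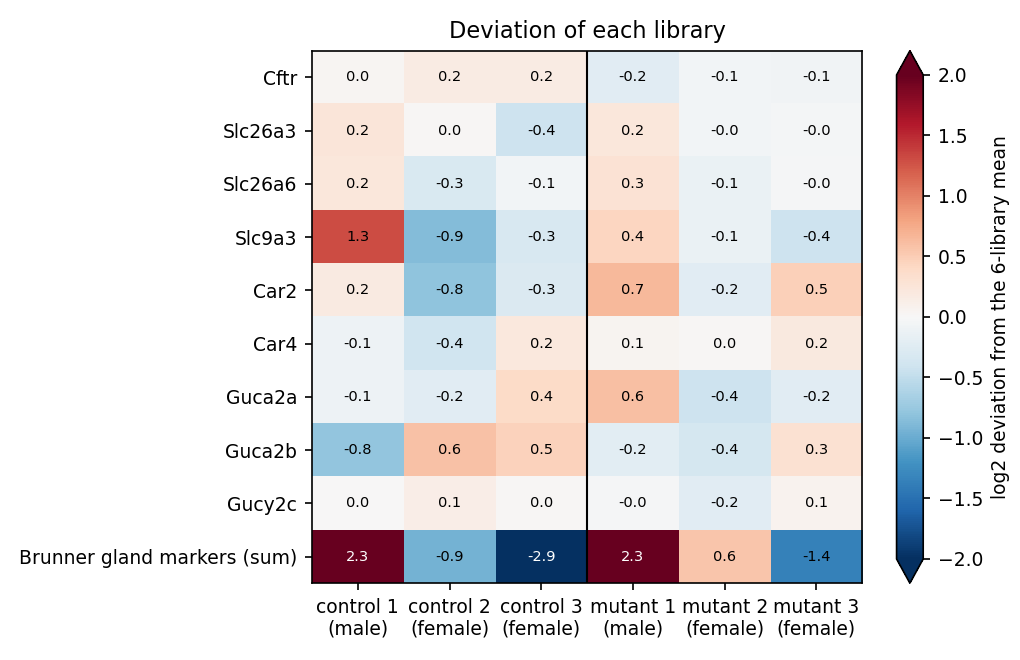
Log2 deviation of each library from the 6-library mean for the 9 tested genes and for the summed Brunner gland markers, with the color scale clipped at 2 and the values printed. Control 1 combines the highest Slc9a3 with the lowest Guca2b, and the rows of Cftr and Gucy2c are nearly flat.

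No partner of these transporters passed the test. Of 20 partner transporters and scaffolds, 19 passed the filter on low values, 0 passed the test in either direction, 0 separated the groups, and the median log2 change was -0.02. Slc12a2, the basolateral chloride loader NKCC1, was at 31.4 ± 4.66 FPKM across the controls and 30.7 ± 3.38 FPKM across the mutants. The anion exchanger Slc4a2 stood at 22.3 ± 1.26 and 22.2 ± 0.752 FPKM, and the bicarbonate importer Slc4a7 at 141 ± 19.95 and 145 ± 29.95 FPKM. Of the potassium channel genes that sustain chloride secretion, Kcnq1 had 25.7 ± 2.55 and 24.7 ± 1.03 FPKM and its subunit gene Kcne3 had 73.6 ± 9.003 and 75.4 ± 14.3 FPKM.

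Slc9a2, another sodium/hydrogen exchanger gene, was at 53.8 ± 4.81 and 50.5 ± 6.15 FPKM. Atp1b1, a beta subunit gene of the sodium pump, had a log2 change of -0.08 (SE 0.13). Slc9a3r1, whose product NHERF1 tethers CFTR and NHE3 at the brush border, had 412, 772 and 661 FPKM across the controls and 438, 678 and 728 FPKM across the mutants. It was lowest in the male library of each group, where Slc9a3 was highest, and its log2 change was 0.01 (SE 0.28). Slc26a9, an anion transporter of stomach, lay below the filter.

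The cyclic nucleotide signalling genes gave no call. Their list also holds genes of the cyclic AMP arm, other guanylate cyclases and other receptors. It therefore does not describe the steps downstream of Gucy2c alone. All 18 passed the filter, 0 passed the test in either direction, and the fitted log2 change was below 0 for 12 and above 0 for 6, with a median of -0.09. Prkg2, the membrane-bound cyclic GMP kinase that acts on CFTR, had 19.5, 18.9 and 19.9 FPKM across the controls and 15.2, 16.4 and 19.3 FPKM across the mutants. Mutant 3 lay inside the control range, and the log2 change was -0.20 (SE 0.11, limma unadjusted p = 0.104). Prkar2a, a regulatory subunit of the cyclic AMP kinase, had 64.5, 53.5 and 52.7 FPKM across the controls and 51.4, 45.2 and 44.7 FPKM across the mutants, with no overlap (log2 change -0.27, SE 0.11, limma unadjusted p = 0.0436, adjusted p = 0.99996). The other gene without overlap, also lower in the mutants, was Abcc4, a cyclic nucleotide exporter, at 1.23 ± 0.0883 and 0.961 ± 0.169 FPKM. These 2 of 18 genes stand against 7.57% of all tested genes whose groups did not overlap in either direction. Prkar2a and Abcc4 are singled out after their values were seen.

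Adcy6, an adenylate cyclase gene, stood at 31.8 ± 5.24 FPKM across the controls and 36.7 ± 3.92 FPKM across the mutants. The phosphodiesterase gene Pde5a, whose product degrades cyclic GMP, stood at 16.3 ± 3.02 and 15.2 ± 1.78 FPKM. Among receptors that drive secretion, Vipr1 was at 63.2 ± 12.2 and 58.6 ± 4.50 FPKM, Ptger4 at 21.4 ± 6.87 and 19.3 ± 5.23 FPKM, and Adora2b at 7.32 ± 3.37 and 6.93 ± 1.58 FPKM. The groups overlapped for all of these.

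The genes most like 4 of the members were taken from 8535 tested genes whose mean reached 5 FPKM, by Pearson r of log2 levels over the 6 libraries. For Cftr they were Net1 (0.983), Nrip1 (0.981) and Fam125a (0.980), and for Gucy2c Snrk (0.975), Med13 (0.971) and Aplp1 (0.968). For Guca2b they were Csnk1g3 (0.994), Slc3a2 (0.989) and Gna13 (0.988), and 29 genes had an r over 0.95. For Guca2a they were Gm11437 (0.988), Mlxip (0.982) and 5730494N06Rik (0.976), and 8 genes had an r over 0.95. These are descriptions over 6 libraries.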

How the data were processed

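The members and gene lists were chosen with earlier results of these data known. Per the submitters' processing notes, CASAVA 1.8.2, TopHat, Cufflinks, DESeq and mm9 were used, with no settings given. Per the file headers, the authors' gene and isoform tables hold FPKM per library, and the isoform tables also hold coverage, an unscaled signal, with isoform lengths in bases. The authors' deposited comparison holds DESeq mean normalized counts (a signal averaged over libraries), their ratio, its log2 value, p-values and adjusted p-values. It has no value per library and was used only to describe.

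Of 23699 gene rows, 344 lacked a successful estimate in at least 1 library. Of rows that shared a symbol (464 repeats) the one with the highest mean was kept, and 23026 of 23235 symbols were used. Slc4a4, Muc2, Pla2g2a and Amy2a5 were left out of tests for lack of an estimate. Read numbers were derived as coverage × (length − 210.4 bases) / 101 bases. Of values under 50 reads, 89.7% to 91.0% then fell within 0.05 of a whole number. These reads are estimates, without molecular identifiers.

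The test was limma 3.58.1 (R 4.3.3) on log2(FPKM + 0.1) with an intensity trend in the prior, restricted to genes whose mean reached 0.2 FPKM. Differences are mutants less controls, tests are two-sided, and p-values were adjusted by Benjamini-Hochberg over every gene tested (threshold 0.05). Changes on this scale understate those of low genes. Isoforms were fitted likewise. The procedure was tested on simulated data with known changes in genes of at least 5 FPKM and with independent noise. It recovered 77 of 100 genes changed 2-fold and 92 of 100 changed 4-fold, and called 8 unchanged genes. With none changed it called 0. The simulated noise held no sex or gland differences. Nothing in the labels says that libraries are separate mice beyond their titles and genotypes, so p-values measure the spread between these libraries, of which no 2 were identical. Named genes were the members, measured genes of the 3 pathway lists whose mean reached 5 FPKM, the 3 genes most like Cftr, Guca2a, Guca2b and Gucy2c, and Nkx2-2. Genes below that level are named after their values were seen. Some genes that this rule covers are not reported here. Alternatives were other pseudocounts, filters, scalings, priors and weights, terms for the replicate number, the reporter and sex, limma-voom on the estimated reads, and leaving out each library. The sex and voom settings were added after seeing the data.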

Additional observations from a re-analysis of the deposited data

How the results depend on the processing

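Cftr, Car2, Car4 and Gucy2c kept their direction in all 18 alternatives, with log2 changes of -0.29 to -0.19, 0.35 to 0.86, 0.04 to 0.35 and -0.19 to -0.03, and no member passed over all genes in any. The unadjusted p of Cftr ran from 0.00774 to 0.0877. The direction of the other members rested on single libraries. Leaving out 1 library, Slc26a3 ranged from -0.0804 to 0.25, Slc26a6 from -0.0397 to 0.23, Slc9a3 from -0.53 to 0.55, Guca2a from -0.35 to 0.16 and Guca2b from -0.61 to 0.0726. The sign turned for Slc26a3 without control 3 (-0.0804), for Slc26a6 without control 2 (-0.0397) or mutant 1 (-0.03), for Slc9a3 without control 1 (0.55) or mutant 3 (0.11), for Guca2a without control 3 (0.15), mutant 2 (0.16) or mutant 3 (0.07), and for Guca2b without control 2 (0.0726) or control 3 (0.0066). The Guca2b to Guca2a log2 ratio ranged from -0.51 to 0.23 without 1 library and turned without control 2 (0.23) or mutant 1 (0.23). The cause was not tested.

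The count of genes called over all genes was 0 to 3 without 1 library (1 without control 1, control 2, mutant 1 or mutant 3, and 3 without control 3). The count of isoforms, 5 as reported, was 0 to 9 without 1 library, 3 with a pseudocount of 1 or of 0.01 or with array weights, 34 unfiltered, 1 when a mean of 1 FPKM was required, 17 without the trend, 0 with a reporter term and 1 with a sex term. With a replicate block the counts were 1 gene and 0 isoforms, Car2 stood at an unadjusted p of 0.000621 (adjusted p = 0.458 by limma) and Cftr at 0.00977, and the ratio difference was -0.14. Number 1 of each group is the male library, with the highest Brunner gland marker sum, so the block takes in that split. Same-numbered libraries deviated together with correlations of 0.211, 0.053 and 0.221, and control 2 was closest to mutant 3 (0.064). These values cannot decide whether the numbers mark pairs. The numbers were not taken as pairs because nothing in the labels says that they pair mice.

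Depth was at least 521 estimated reads for each member in each library, and the shares of counting, mice, sex and gland content in the spread were not tested.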

Other observations

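Male and female libraries were compared in the fit with a sex term, chosen after seeing the data, with 2 males (control 1 and mutant 1) and 4 females. Slc9a3 had a mean of 64.9 FPKM in the males and 25.5 FPKM in the females, a log2 difference of 1.30 (SE 0.30, limma unadjusted p = 0.00468, adjusted p = 0.180). Slc26a6 had 292 and 224 FPKM (0.39, SE 0.09, adjusted p = 0.199) and Slc26a3 had 154 and 121 FPKM (0.36, SE 0.13, adjusted p = 0.309). For these 3 of 9 members both males lay above all 4 females, where 27.3% of all tested genes separated the sexes in either direction, and 70 genes (0.478%) passed. Car2 had 201.6 and 135.5 FPKM (0.63, SE 0.23, adjusted p = 0.314), with males and females overlapping. Guca2b went the other way, at 674 and 1138 FPKM (-0.74, SE 0.30, adjusted p = 0.341), and Gucy2c was at 85.3 and 86.1 FPKM. None of the members passed. Sex here was read from Xist and Eif2s3y, and the males also had the highest Brunner gland marker sums. For these differences between males and females, sex and gland content cannot be told apart, although the sums also varied among the females.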
